A study of Mus musculus with 6 samples.

Results

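The genes described are 10 of the NF-kB system, taken by symbol from the 21878 genes of the deposited expression table. They fall into 4 subunits (Nfkb1, Nfkb2, Rela and Relb), 5 inhibitors of the pathway (Nfkbia, Nfkbib, Nfkbie, Tnfaip3 and Birc3) and 1 activating kinase (Ikbkb). The question was how the RNA of the subunits moved against that of the inhibitors, several of which the pathway itself induces. No measured value entered the choice by rule, but the genes were picked with earlier results of these data known.

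RNA was measured in HT22 cells, an immortalized mouse hippocampal neuronal cell line, in 3 libraries of control cells and 3 of cells exposed to 120 µM aluminum maltolate, the Al group. All 6 are input libraries of an m6A immunoprecipitation experiment, so their RNA was fragmented but not pulled down. The methods give 24 h for the treatments in general and do not repeat a time for sequencing. They also list both a medium-only and a maltol-only control without naming the sequenced one, so a part of any difference that came from maltol cannot be told apart from that of aluminum. Both groups share the cell line and no other treatment is named. The labels mark the second group with the letter M, which was read as Al because the study uses either name for the same comparison. The series design calls the replicates biological, but does not say whether they came from separate cultures, so the P values measure only the spread between these libraries.

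NF-kB factors are dimers of Rel-family proteins. Rela, Relb and Rel carry an activation domain, whereas Nfkb1 and Nfkb2 encode the precursors p105 and p100, which are processed to p50 and p52. In resting cells IkB proteins hold the dimers in the cytoplasm. The IkB kinase phosphorylates IkB and so marks it for degradation, and the freed dimers bind κB sites in DNA. Several genes that they switch on, among them Nfkbia and Tnfaip3, encode inhibitors of the same pathway and close a negative feedback loop.

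Between 37546682 and 43917493 reads on genes were recovered per control library, and between 20742021 and 26209974 per Al library. Summed FPKM was 361083 to 385447 in the control group and 428696 to 479075 in the Al group, and the scaling between libraries therefore matters for every gene. As a check of the cell type, 2 of 9 neuronal markers passed the filter on low values, Snap25 and Nefm were at 0 in all 6 libraries, and the summed FPKM of the list was 5.53 to 5.99 in control and 2.73 to 4.24 in Al libraries. These sums are of deposited values, nearly all from Tubb3. On scaled values neither Tubb3 (log2 -0.19, limma adjusted P = 0.404) nor Syp (-0.16) was called. The 5 fibroblast markers summed to 2010 to 3190 and 2470 to 3450 FPKM, nearly all of it from the collagen genes Col1a1 and Col1a2. Of these markers Pdgfra (log2 -1.22), Dcn (-1.64) and Lum (-2.28, a call lost with voom) were called lower, and Col1a1 was called higher (0.92), a call lost on FPKM as deposited, TPM, with the replicate block and without control replicate 3, with the sign turned under quantile normalization (-0.46). Of 8 microglia and macrophage markers, P2ry12 was at 0 in all libraries and Ptprc had a mean FPKM of 0.0146 in control and 0.0112 in Al libraries, while the list summed to 39.4 to 49.0 and 22.6 to 72.7 FPKM, nearly all from Tmem119. Cx3cr1 of this list was called higher (log2 2.14, limma adjusted P = 0.00214), at 6 to 13 reads in control and 31 to 75 in Al libraries. The 4 astrocyte markers summed to 0.117 to 0.290 and 0.125 to 0.351 FPKM, the 4 oligodendrocyte markers to 0.192 to 0.314 and 0.185 to 0.781, and the 3 endothelial markers to 0.00421 to 0.164 and 0.367 to 0.371, of which Pecam1 was called higher (log2 1.26), a call lost with a pseudocount of 1, on TPM, under quantile normalization and without control replicate 2 or Al replicate 1. The part of these markers in the results was not tested. In such bulk samples fewer cells of one kind and less RNA per cell cannot be told apart.

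Promoter sequences are shown for the members whose start-site window holds a match to the κB consensus. RefSeq windows on GRCm38.p6 of 300 bases, 250 before and 50 after the transcription start site, were found for 7 of the 10 members, and not for Nfkb1, Relb or Ikbkb. The κB consensus, 10 bases long, was taken as GGGRNNYYCC (R is A or G, Y is C or T, N is any base) and searched on both strands. Stretches that resemble it without a full match are not marked. It matched in Nfkb2, Nfkbia, Nfkbie and Tnfaip3 and not in the windows of Rela, Nfkbib and Birc3. Of all 32851 windows in the table, 8.46% held at least 1 match and 0.521% at least 2 separate ones. A match is a description of the letters, binding was not measured, and a link between matches and RNA changes was not tested.

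The 250 bases before the RefSeq start site of the first window of each gene are printed below 5′ to 3′ on the gene's own strand, with the matches in capitals. For Nfkb2 they lie wholly, and for Tnfaip3 almost wholly, inside the GENCODE gene coordinates given further below, which begin at another start site. Nfkbia is at chr12:55492648-55492897 on the minus strand, Tnfaip3 at chr10:19015411-19015660 on the minus strand, Nfkbie at chr17:45555450-45555699 on the plus strand and Nfkb2 at chr19:46304487-46304736 on the plus strand.
Nfkbia: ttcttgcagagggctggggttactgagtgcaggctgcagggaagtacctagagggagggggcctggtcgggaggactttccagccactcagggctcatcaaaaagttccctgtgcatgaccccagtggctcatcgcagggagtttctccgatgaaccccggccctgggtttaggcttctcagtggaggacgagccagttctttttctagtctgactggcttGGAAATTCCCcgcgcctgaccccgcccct
Tnfaip3: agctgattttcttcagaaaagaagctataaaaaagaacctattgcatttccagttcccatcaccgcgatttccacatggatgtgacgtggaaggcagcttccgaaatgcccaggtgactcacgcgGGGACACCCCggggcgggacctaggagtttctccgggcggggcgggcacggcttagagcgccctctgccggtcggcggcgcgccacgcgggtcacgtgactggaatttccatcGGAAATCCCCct
Nfkbie: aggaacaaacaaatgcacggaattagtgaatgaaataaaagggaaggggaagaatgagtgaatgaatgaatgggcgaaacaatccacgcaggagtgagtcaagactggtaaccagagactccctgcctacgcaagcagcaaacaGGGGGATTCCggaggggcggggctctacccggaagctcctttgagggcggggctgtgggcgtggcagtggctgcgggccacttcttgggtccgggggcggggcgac
Nfkb2: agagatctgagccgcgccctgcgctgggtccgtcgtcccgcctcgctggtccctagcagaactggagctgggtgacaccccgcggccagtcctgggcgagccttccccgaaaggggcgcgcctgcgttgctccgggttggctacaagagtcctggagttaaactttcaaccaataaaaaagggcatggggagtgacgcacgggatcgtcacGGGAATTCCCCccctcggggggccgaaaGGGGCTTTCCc

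The match in Nfkbia lay at bases -29 to -20 from the start site, on the antisense strand. Tnfaip3 held 2 matches, at -125 to -116 on both strands and at -12 to -3 on the antisense strand. In Nfkbie the single match, at -106 to -97, was on the sense strand. Nfkb2 held 2 runs in the same window, at -39 to -29 where a palindromic match and an overlapping antisense match share bases, and at -11 to -2 on the sense strand. The other windows of Nfkb2, at further annotated start sites, also held matches, whereas the further window of Tnfaip3 held none. Nfkb2, whose RNA was not called, had as many matched stretches in its first window as Tnfaip3.

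**Figure D1:**
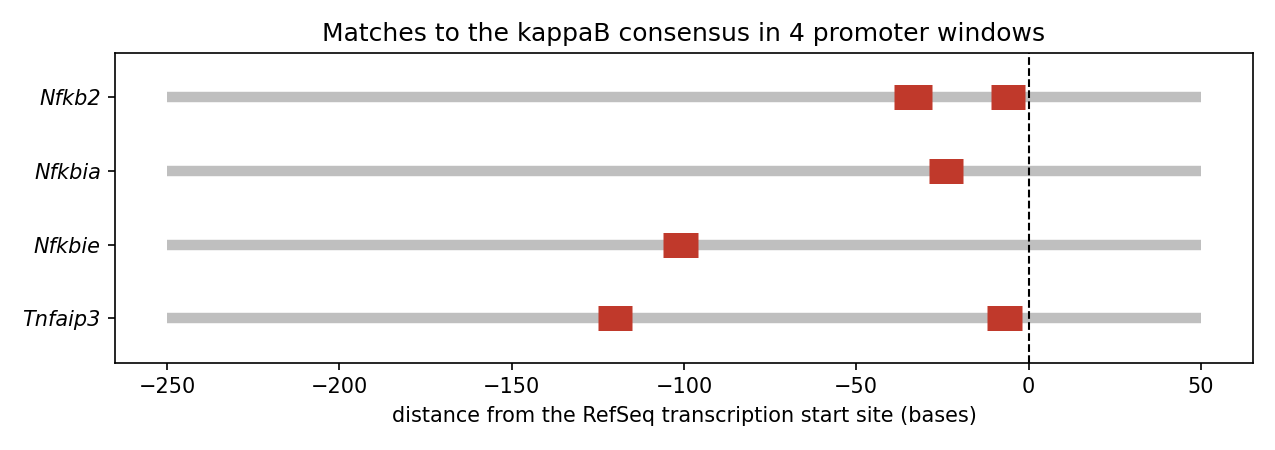
Positions of κB consensus matches (red) in the first RefSeq promoter window (grey) of Nfkb2, Nfkbia, Nfkbie and Tnfaip3; the x axis is the distance in bases from the transcription start site (dashed line). Nfkb2 and Tnfaip3 have 2 matched stretches each, Nfkbia and Nfkbie 1 each.

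After Al exposure the RNA of 3 inhibitors rose (Nfkbia, Nfkbie and Tnfaip3), that of 1 inhibitor fell (Birc3), and that of the 4 subunits, Nfkbib and Ikbkb did not pass both thresholds. Calls followed the study's thresholds, a limma P below 0.05 before adjustment together with a log2 fold change beyond 0.58 in either direction, on log2(FPKM divided by the library's size factor plus 0.1). All 10 members passed the filter of a mean FPKM of at least 0.1. The background is high: of 12889 tested genes 26.2% were called higher, 24.4% lower and 50.6% in either direction, so 4 called members of 10 is a share below that of all genes. The same 4 members were called when the adjusted P replaced the unadjusted one, against 25.5% of all genes higher, 23.7% lower and 49.2% in either direction. By the adjusted P alone, 3 members were higher and 4 lower, against 32.2%, 29.9% and 62.1% of all genes. On scaled values the Al libraries lay wholly above the control libraries for 3 members and wholly below for 4, while over all genes these shares were 35.1% and 33.1%, or 68.1% together. The median log2 fold change was 0.14 for the members and 0.03 for all tested genes. Log2 and fold changes come from the fitted log2 means with the pseudocount, so they can differ from the ratio of the printed means.

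**Figure D2:**
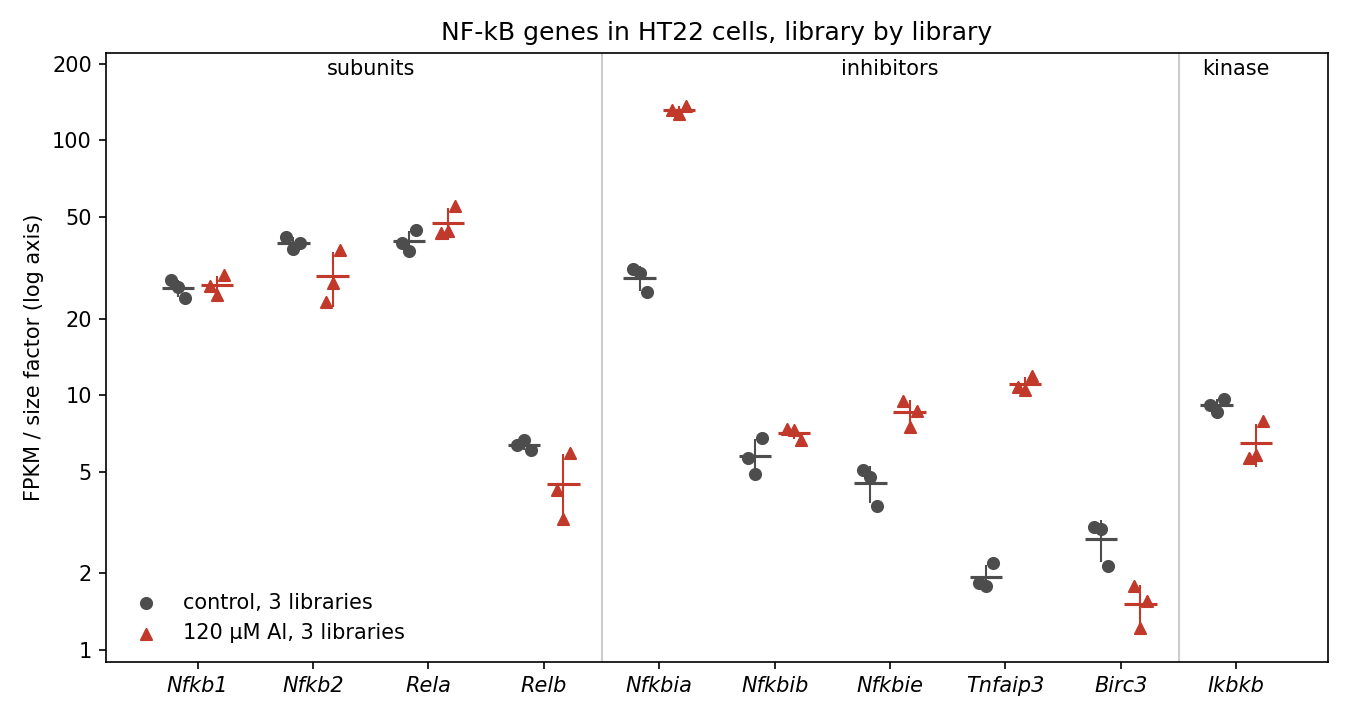
FPKM divided by the size factor (log axis) of each gene in the 3 control (grey circles) and 3 Al (red triangles) libraries, with horizontal lines at the group means and vertical lines of ± 1 SD. Nfkbia, Nfkbie and Tnfaip3 have all Al libraries above all control libraries, while Nfkb2, Relb, Birc3 and Ikbkb have them below.

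Among the subunits, Rela (chr19:5637483-5648130, GRCm38, plus strand) encodes p65, the main activating subunit of the canonical pathway. Its FPKM was 46.9, 44.6 and 52.0 in control and 34.6, 35.9 and 51.7 in Al libraries. After division by the size factors these values became 39.6, 36.9 and 44.3 in control and 43.2, 44.1 and 55.4 in Al libraries. The groups overlapped on the scaled values, with Al replicate 3 the highest of all 6. The log2 fold change was 0.23 (SE 0.13, 95% interval -0.05 to 0.52, limma adjusted P = 0.135), and Rela was not called.

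Nfkb1 (chr3:135584655-135691547, minus strand) had 33.5, 32.1 and 28.3 FPKM in control and 21.5, 20.2 and 27.6 in Al libraries. Scaled values were 28.3, 26.5 and 24.1 against 26.8, 24.8 and 29.6. The deposited values of the Al group lay below the control group, while the scaled ones were interleaved. The log2 fold change of 0.04 had an interval from -0.21 to 0.28 (SE 0.11, limma adjusted P = 0.765), so the interval lay within the fold threshold on either side. Nfkb1 shares 3897 bases with Gm43430 on the same strand, whose part in these values was not tested.

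The noncanonical pair stood lower in the Al group. Nfkb2 (chr19:46304320-46312385, plus strand) had 49.6, 45.3 and 46.2 FPKM in control and 18.6, 22.5 and 34.8 in Al libraries, or 41.8, 37.5 and 39.4 against 23.2, 27.6 and 37.3 when scaled. Every Al library lay below every control library, but Al replicate 3 nearly reached the lowest control value. The log2 fold change was -0.46 (SE 0.16, interval -0.83 to -0.09, limma adjusted P = 0.0357), short of the fold threshold. The last 299 bases of Nfkb2 overlap Psd on the opposite strand, and 1292 bases overlap AC114539.1, also on the opposite strand and without values. Psd had 6.27, 6.31 and 4.83 FPKM in control and 2.52, 3.33 and 4.88 in Al libraries. Since the strand setting of the counting was not stated, reads in these overlaps cannot be told apart.

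Relb (chr7:19606217-19629438, minus strand), the partner of p52 in the noncanonical pathway, had 7.60, 8.04 and 7.17 FPKM in control and 3.43, 2.66 and 5.56 in Al libraries. Scaled values were 6.41, 6.65 and 6.11 against 4.27, 3.26 and 5.96. As with Nfkb2, all Al libraries were lower and Al replicate 3 came closest to the control group. The log2 fold change was -0.54 (SE 0.20, interval -1.0 to -0.08, limma adjusted P = 0.0444), also short of the threshold. These genes rest on 165 to 993 reads a library for Relb and 1822 to 7641 for Nfkb2. Without Al replicate 3 the log2 fold changes were -0.63 for Nfkb2 and -0.75 for Relb and both passed the thresholds, and Relb also passed without control replicate 3 (-0.58). In the other direction, Nfkb2 was at -0.30 without Al replicate 1 (limma adjusted P = 0.109), and Relb at -0.32 without Al replicate 2 (limma adjusted P = 0.138) and at -0.29 under quantile normalization. For both genes Al replicate 3 was the only library whose removal left the adjusted P under 0.05. Al replicate 3 held the highest Al value of every subunit and of Ikbkb.

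Of the inhibitors, Nfkbia (chr12:55489410-55492647, minus strand) encodes IkBα, the IkB protein that the pathway resynthesizes fastest. Its FPKM was 37.0, 36.4 and 29.7 in control and 106, 103 and 127 in Al libraries. Scaled values were 31.2, 30.1 and 25.3 in control and 132, 127 and 136 in Al libraries. The groups were far apart, and the Al libraries lay within a narrow range. Scaled FPKM went from 28.9 ± 3.15 to 132 ± 4.63 (SD, n = 3 each), with a fitted fold change of 4.57 (log2 2.19, SE 0.11, interval 1.94 to 2.44, limma adjusted P = 4.68e-06). Of all tested genes 2.27% had a log2 fold change at least as large.

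Tnfaip3 (chr10:19000910-19015657, minus strand) encodes A20, a ubiquitin-editing enzyme that shuts off signalling between the receptor and the IkB kinase. Its FPKM was 2.18, 2.17 and 2.58 in control and 8.70, 8.55 and 11.1 in Al libraries, from 399 to 552 and 899 to 1126 reads. Scaled values were 1.84, 1.79 and 2.19 against 10.8, 10.5 and 11.9. All Al libraries were again far above all control libraries. Scaled FPKM rose from 1.94 ± 0.219 to 11.1 ± 0.723, with a fitted fold change of 5.48 (log2 2.46, SE 0.13, interval 2.15 to 2.76, limma adjusted P = 6.15e-06), a change that 1.48% of all tested genes reached.

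Nfkbie (chr17:45555703-45563169, plus strand) encodes IkBε, a slower IkB protein. It had 6.02, 5.80 and 4.31 FPKM in control and 7.61, 6.14 and 8.10 in Al libraries, and scaled values of 5.08, 4.8 and 3.67 against 9.49, 7.53 and 8.68. The groups did not overlap on either scale, but on the deposited values the lowest Al library was close to the highest control. The fitted fold change was 1.89 (log2 0.92, SE 0.16, interval 0.56 to 1.27, limma adjusted P = 0.00108). Unlike Nfkbia and Tnfaip3, its call was lost on FPKM as deposited (log2 0.44) and on TPM (log2 0.14).

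Nfkbib (chr7:28758251-28767512, minus strand), the gene of IkBβ, had 6.71, 5.94 and 7.98 FPKM in control and 5.93, 5.94 and 6.24 in Al libraries. Scaled values were 5.67, 4.91 and 6.80 against 7.39, 7.30 and 6.69, and the groups overlapped. Its log2 fold change was 0.30 (SE 0.14, interval -0.02 to 0.63, limma adjusted P = 0.0908), with no call. Nfkbib shares 778 bases with Sirt2 and 718 with Ccer2 on the opposite strand. Sirt2 had 38.5, 38.9 and 39.7 FPKM in control and 19.3, 20.4 and 19.2 in Al libraries, and its part in the Nfkbib values was not tested.

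Birc3 (chr9:7848699-7873186, minus strand) encodes cIAP2, a ubiquitin ligase of the TNF receptor complex that also restrains the noncanonical pathway. It was the one inhibitor that fell. FPKM was 3.61, 3.62 and 2.51 in control and 1.43, 0.994 and 1.46 in Al libraries, and scaled values were 3.05, 2.99 and 2.14 against 1.78, 1.22 and 1.56. Every Al library was below every control library, with control replicate 3 the nearest. The fitted fold change was 0.574 (log2 -0.80, SE 0.21, interval -1.28 to -0.32, limma adjusted P = 0.00986) and rests on 77 to 557 reads a library. The call was lost with a pseudocount of 1 (log2 -0.56) and under quantile normalization (log2 -0.50).

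Ikbkb (chr8:22659212-22706589, minus strand) encodes IKKβ, the kinase subunit that phosphorylates IkB in the canonical pathway. Its FPKM was 10.8, 10.4 and 11.4 in control and 4.54, 4.76 and 7.38 in Al libraries, or 9.16, 8.59 and 9.67 against 5.66, 5.85 and 7.91 when scaled. All Al libraries were lower, with Al replicate 3 nearest to the control group. The log2 fold change of -0.51 (SE 0.15, interval -0.84 to -0.17, limma adjusted P = 0.0154) stayed short of the fold threshold, and it was -0.65 and called without Al replicate 3. Without control replicate 3 or Al replicate 2 its adjusted P rose to 0.0526 and 0.057 in limma. Ikbkb shares 9382 bases with Gm15346 on the opposite strand, whose part in these values was not tested. For single genes the exact two-sided permutation test over 3 against 3 libraries cannot go below P = 0.1, which was its value for every member whose groups did not overlap.

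In order of scaled FPKM, the control cells held most RNA of Rela (40.3 ± 3.72) and Nfkb2 (39.6 ± 2.16), which overlapped, then Nfkbia (28.9 ± 3.15) and Nfkb1 (26.3 ± 2.12), which overlapped too. Ikbkb followed at 9.14 ± 0.541. Nfkbib (5.79 ± 0.951) overlapped both Relb (6.39 ± 0.274) above it and Nfkbie (4.52 ± 0.748) below it. Birc3 (2.73 ± 0.508) and Tnfaip3 (1.94 ± 0.219) closed the order with values that overlapped each other but not Nfkbie. In the Al group Nfkbia stood first at 132 ± 4.63, without overlap with Rela (47.6 ± 6.82). Nfkb2 (29.4 ± 7.20) and Nfkb1 (27.0 ± 2.40) overlapped. Tnfaip3 (11.1 ± 0.723) had moved from the last to the fifth place, above Nfkbie (8.57 ± 0.982), with no overlap. Ikbkb (6.47 ± 1.25) overlapped both Nfkbib (7.12 ± 0.379) above it and Relb (4.50 ± 1.37) below it. Birc3 was last at 1.52 ± 0.282 and did not overlap Relb. FPKM is divided by gene length, so these are levels per length.

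Ratios of genes within a library do not depend on how libraries are scaled to each other, apart from the pseudocount and from quantile normalization. The ratio of Nfkbia to Rela was 0.788, 0.817 and 0.571 in control and 3.06, 2.88 and 2.46 in Al libraries. There was thus less Nfkbia than Rela RNA in every control library and more in every Al library. On the log2 scale the ratio went from -0.48 ± 0.28 to 1.48 ± 0.16 (SD, n = 3 each), a difference of 1.96 (exact two-sided permutation test, P = 0.1, the smallest the design allows).

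The ratio of Tnfaip3 to Nfkb1 was 0.0650, 0.0677 and 0.0911 in control and 0.405, 0.424 and 0.402 in Al libraries. These values were almost equal among the Al libraries. Their log2 mean went from -3.69 ± 0.26 to -1.28 ± 0.04, a difference of 2.42 (exact two-sided permutation test, P = 0.1).

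Averaged over the 5 inhibitors, the mean log2 scaled FPKM was 2.42 ± 0.08 in control and 3.43 ± 0.10 in Al libraries, with no overlap. Over the 4 subunits it was 4.51 ± 0.04 and 4.33 ± 0.26, and the groups overlapped. Most of the rise of the inhibitor mean came from Nfkbia (log2 2.19) and Tnfaip3 (2.46), beside Nfkbie (0.92), Nfkbib (0.30) and Birc3 (-0.80). The inhibitor mean minus the subunit mean was -2.06, -2.07 and -2.15 in control and -0.70, -0.84 and -1.17 in Al libraries. Al replicate 3, with its higher subunit values, had the smallest shift. The difference between groups was 1.19 on the log2 scale, given as a description with no test because the genes were chosen with results known. The median log2 fold change was 0.92 for the inhibitors (3 called higher, 1 lower) and -0.21 for the subunits (0 called in either direction, 2 with a limma adjusted P under 0.05, both lower).

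**Figure D3:**
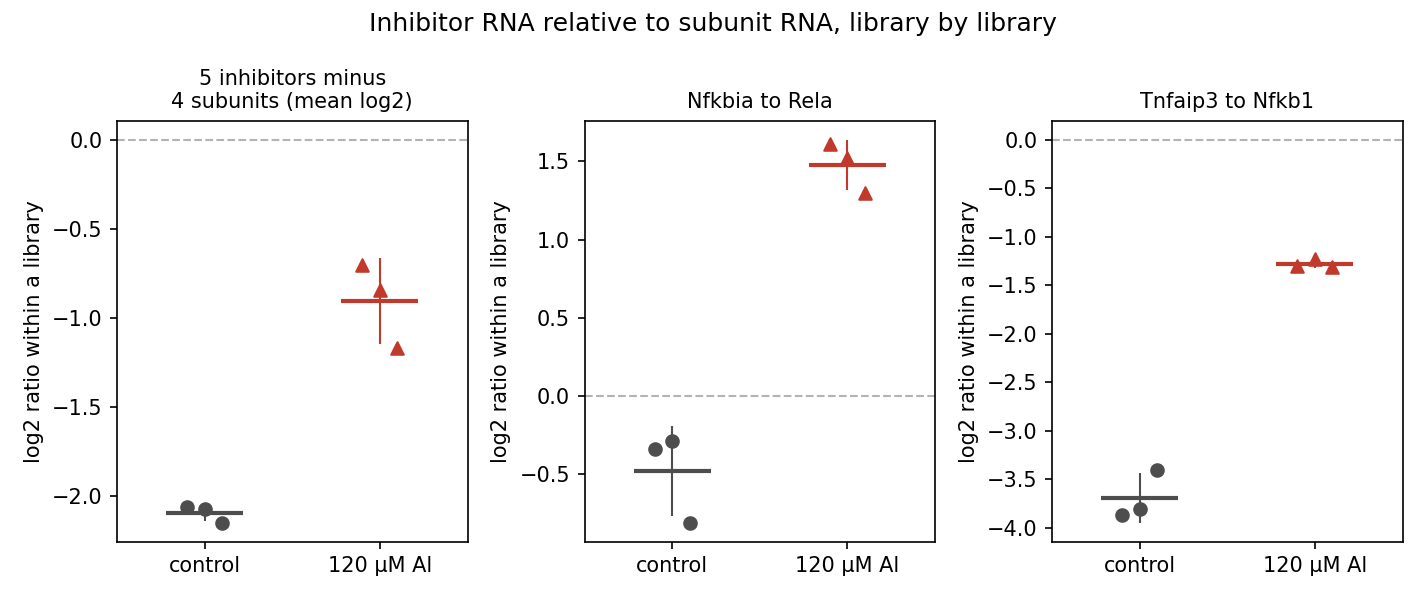
Log2 ratios within each library for the mean of 5 inhibitors minus the mean of 4 subunits, for Nfkbia to Rela and for Tnfaip3 to Nfkb1, in 3 control (grey circles) and 3 Al (red triangles) libraries; horizontal lines are means, vertical lines ± 1 SD, the dashed line is a ratio of 1, and each panel has its own axis. In every panel all Al libraries lie above all control libraries.

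The scaling between libraries decided which side of 0 several members were on. Over all tested genes the median log2 fold change was 0.03 with the size factors, -0.43 on FPKM as deposited and -0.72 on TPM, and the share of calls that were higher was 51.8%, 25.0% and 14.9%. Nfkbia stayed called with log2 fold changes of 1.41 to 2.24 over all settings, and Tnfaip3 with 1.69 to 2.61. Rela, Nfkb1 and Nfkbib turned negative on FPKM as deposited (-0.25, -0.45 and -0.18) and on TPM (-0.55, -0.75 and -0.47). Nfkb2, Relb and Ikbkb passed the thresholds as lower on FPKM as deposited (-0.94, -1.02 and -0.99) and on TPM (-1.24, -1.31 and -1.28), where Nfkb1 was called lower as well. These 4 and, on TPM, 5 members called lower (Birc3 included) stand beside 42.0% and 53.1% of all genes called lower under the same scalings, and 14.0% and 9.31% called higher.

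**Figure D4:**
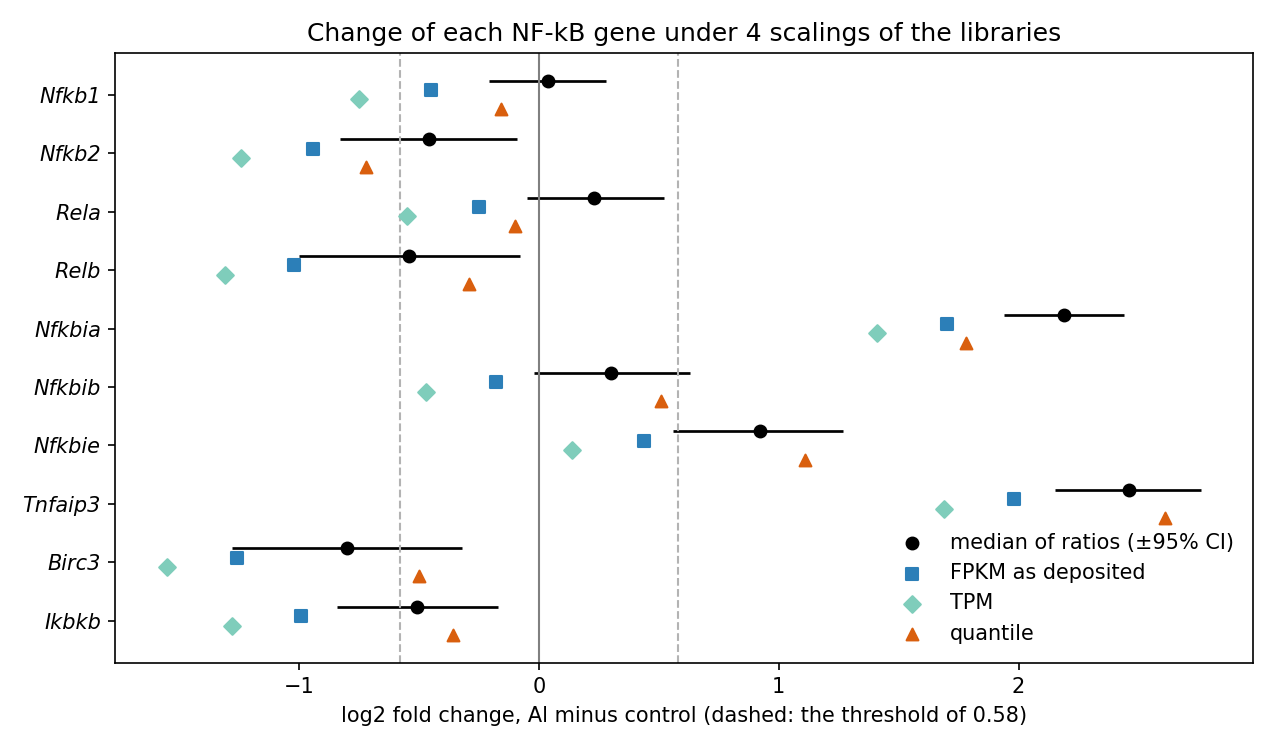
Log2 fold change of each gene, Al minus control, with libraries scaled by medians of ratios (black, with 95% intervals), as deposited (blue), as TPM (green) and after quantile normalization (orange); dashed lines mark 0.58 in either direction. Nfkbia and Tnfaip3 stay beyond the upper line under all 4 scalings, while Rela, Nfkb1 and Nfkbib change sign.

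The rest of the pathway was described by 7 lists of 106 genes in all, of which 88 were tested, 26 called higher, 18 lower and 44 not called. Among 8 other Rel and IkB family genes, 7 were tested, 3 rose and 1 fell (42.9% and 14.3%, beside 26.2% and 24.4% of all genes), with a median log2 fold change of 0.28, but 1 was higher and 2 lower on FPKM as deposited and on TPM, where most calls over all genes were lower, as given above. Levels of the pathway genes are given as scaled FPKM, the scale of their fold changes. Rel, the c-Rel subunit, went from 2.75 ± 0.142 to 5.71 ± 0.328 (SD, n = 3 each) (log2 1.03, SE 0.13, limma adjusted P = 0.000188), a call lost as deposited and on TPM. Nfkbiz, an inducible nuclear IkB protein, went from 4.17 ± 0.60 to 13.6 ± 2.78 (log2 1.67, SE 0.17, limma adjusted P = 6.84e-05). Bcl3, another nuclear IkB protein that works with p50 and p52, fell from 2.60 ± 0.668 to 0.286 ± 0.171 (log2 -2.90, SE 0.39, limma adjusted P = 0.00029), from 186 to 271 reads a library down to 3 to 15. The Nfkbiz and Bcl3 calls held under every scaling. The last of the called genes was Nkrf, a repressor of NF-kB target promoters (log2 1.03, SE 0.17), whose call was lost as deposited and on TPM.

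Around the IkB kinase, 1 of 16 tested genes was called higher and 4 lower (6.25% and 25.0%, beside 26.2% and 24.4% of all genes), with a median of -0.03. Ikbkg, the scaffold subunit NEMO, fell from 3.31 ± 0.276 to 1.38 ± 0.374 scaled FPKM (log2 -1.24, SE 0.22, limma adjusted P = 0.00131). Chuk, the kinase subunit IKKα, was at 12.4 ± 0.296 and 11.2 ± 3.39 and was not called (log2 -0.18, limma adjusted P = 0.404). Irak4, the kinase that relays signals of Toll-like and IL-1 receptors, had 5.66 ± 0.565 in control and 1.33 ± 0.234 in Al libraries (log2 -2.02, SE 0.18, limma adjusted P = 3.38e-05). Tab1, a subunit of the TAK1 complex, fell by 1.15 on the log2 scale, while Tab2 of the same complex was called higher at 0.69, a call lost on FPKM as deposited (0.20) and under quantile normalization (0.51) and turned in sign on TPM (-0.10). On FPKM as deposited this list had 0 genes higher and 7 lower, and on TPM 0 and 10, beside 42.0% and 53.1% of all genes called lower.

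The adaptors and ubiquitin ligases were split, with 4 of 19 tested genes higher and 4 lower (21.1% each) and a median of -0.02. All genes were 26.2% higher and 24.4% lower. The list had 2 genes higher and 9 lower on FPKM as deposited, beside 14.0% and 42.0% of all genes. On TPM it had 1 and 11, beside 9.31% and 53.1% of all genes. Ube2v1, part of an enzyme that builds signalling ubiquitin chains, rose from 27.9, 24.9 and 29.4 scaled FPKM in control to 83.3, 85.6 and 49.8 in Al libraries (log2 1.37, SE 0.20, limma adjusted P = 0.000429). Traf6, the ligase that uses it, rose by a log2 of 1.08 (SE 0.11), and Traf2, a ligase adaptor of the TNF receptor complex, by 0.78 (SE 0.10). The Traf6 call was lost on TPM and the Traf2 call on TPM and as deposited. Of the genes called lower, the 3 with the most negative log2 fold changes kept their calls under all 4 scalings. Xiap, a relative of Birc3, had a log2 fold change of -1.38 (SE 0.21), Traf5 of -1.18 (SE 0.26) and Birc2, the neighbouring gene of cIAP1, of -0.99 (SE 0.17).

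Among the other negative regulators, 4 of 13 tested genes were higher and 2 lower (30.8% and 15.4%, beside 26.2% and 24.4% of all genes), with a median of 0.21. Tollip, an inhibitor of IL-1 receptor signalling, went from 24.8 ± 1.90 to 57.4 ± 3.09 scaled FPKM (log2 1.21, SE 0.10). Rnf11, a partner of A20, went from 50.3 ± 3.46 to 112 ± 13.8 (log2 1.15, SE 0.12), and Zc3h12a, a ribonuclease that degrades inflammatory mRNAs, had a log2 fold change of 0.94 (SE 0.15). All 3 of these calls were lost on TPM, and that of Zc3h12a also as deposited. Pdlim2, which directs p65 to degradation, fell under every scaling (log2 -0.86, SE 0.15), and Tnip1, an A20-binding protein, fell by 0.68 on the log2 scale but not past the threshold under quantile normalization. Cyld, a deubiquitinase that acts beside A20, was at 8.95 ± 0.454 and 7.13 ± 0.51 and was not called (log2 -0.33, limma adjusted P = 0.0301). On FPKM as deposited the list had 2 genes higher and 6 lower, and on TPM 0 and 6, again beside 42.0% and 53.1% of all genes called lower.

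Of 9 tested receptors 1 was called higher and 5 lower (11.1% and 55.6%, beside 26.2% and 24.4% of all genes), with a median of -0.61. The count called lower was 3 with a pseudocount of 1, 7 on FPKM as deposited and on TPM, 6 under quantile normalization, and 4 without control replicate 2 or without Al replicate 2, the latter by the loss of Tnfrsf1a. Over all genes the shares called lower were 18.7% with that pseudocount, 42.0% as deposited, 53.1% on TPM and 24.2% under quantile normalization. Summed over the 12 listed receptors, deposited FPKM was 229 to 271 in control and 401 to 493 in Al libraries. The rise of this sum came from Tnfrsf12a, with 87.1 to 132 and 317 to 389 deposited FPKM. Tnfrsf12a, the receptor of TWEAK, had 73.5, 79.8 and 112 scaled FPKM in control and 396, 438 and 417 in Al libraries (log2 2.26, SE 0.17, limma adjusted P = 1.82e-05). It was the exception among the called receptors. Tnfrsf1b, a TNF receptor, fell from 20.8 ± 0.878 to 9.5 ± 1.77 (log2 -1.14, SE 0.14). Tlr3 (log2 -1.41, SE 0.48) and Tlr2 (log2 -1.11, SE 0.36) had under 1.5 FPKM in both groups and lost their calls with a pseudocount of 1, Tlr2 also without control replicate 2. Of 9 ligands only 3 passed the filter on low values. Il18 fell from 1.26 ± 0.113 to 0.277 ± 0.268 scaled FPKM (log2 -2.14, SE 0.52), with 1 to 18 reads in the Al libraries, and Tnfsf12, which encodes TWEAK, fell by 0.79 on the log2 scale, a call lost under quantile normalization. Tnf was detected with 0, 10 and 1 reads in control and 0, 0 and 1 in Al libraries, and Il1b with 1 read in all, so neither could be compared at this depth. A library with no read is compatible with as many as 3 expected reads, a limit for counting error only.

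Of 26 other NF-kB target genes listed, 21 were tested, 13 were called higher and 0 lower (61.9% and 0% beside 26.2% and 24.4% of all genes), with a median log2 fold change of 0.94. With a limma adjusted P under 0.05 in place of the unadjusted one and the same fold threshold the counts were again 13 and 0. Cxcl1, a neutrophil chemokine, had 3.30, 4.21 and 2.78 scaled FPKM in control and 24.3, 18.7 and 26.8 in Al libraries (log2 2.73, SE 0.18, limma adjusted P = 1.26e-05). Ier3, an immediate early gene, had 16.3, 16.9 and 40.8 against 172, 203 and 258 (log2 3.21, SE 0.33, limma adjusted P = 6.84e-05). Ptgs2, the inducible cyclooxygenase, had 7.72, 6.61 and 18.5 against 87.9, 84.5 and 68.4 (log2 3.01, SE 0.33, limma adjusted P = 0.000102). Control replicate 3 was the highest control library for Ier3 and Ptgs2, and for all 3 genes every Al library was above it. These calls held under every scaling.

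The other called targets were Gadd45b (log2 2.55), Saa3 (2.36), Cxcl10 (2.12), Mmp3 (1.97), Il6 (1.79), Bcl2l1 (1.21), Myc (1.07), Cflar (0.94), Csf1 (0.63) and Sod2 (0.58). Csf1 and Sod2 changed sign on TPM and lost their calls as deposited, under quantile normalization and without single libraries, Csf1 without control replicate 3 or Al replicate 1 and Sod2 without control replicate 1 or 2 or Al replicate 1 or 2. The Sod2 call was also lost with a pseudocount of 1 and with voom. The calls of Bcl2l1 and Myc were lost on TPM, that of Cflar also as deposited, and that of Mmp3 with a pseudocount of 1. Il6, Saa3 and Mmp3 rest on few reads, 36 or fewer in any library. The 8 tested targets that were not called were Ccl20 (log2 0.61), Ccl5 (0.57), Ccl2 (0.53), Ccl7 (0.51), Vcam1 (0.37), Irf1 (-0.13), Lcn2 (-0.33) and Ptx3 (-0.74). Cxcl2, Csf2, Icam1, Nos2 and Mmp9 did not pass the filter on low values. The list had 10 genes higher and 2 lower on FPKM as deposited, with a median of 0.46 beside -0.43 for all genes, and 8 and 3 on TPM, with a median of 0.16 beside -0.72. Under quantile normalization it had 11 higher and 1 lower, and without control replicate 1 or Al replicate 1 it had 12 and 1. Many of these genes also respond to other transcription factors, and the list is a description of their RNA only.

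**Figure D5:**
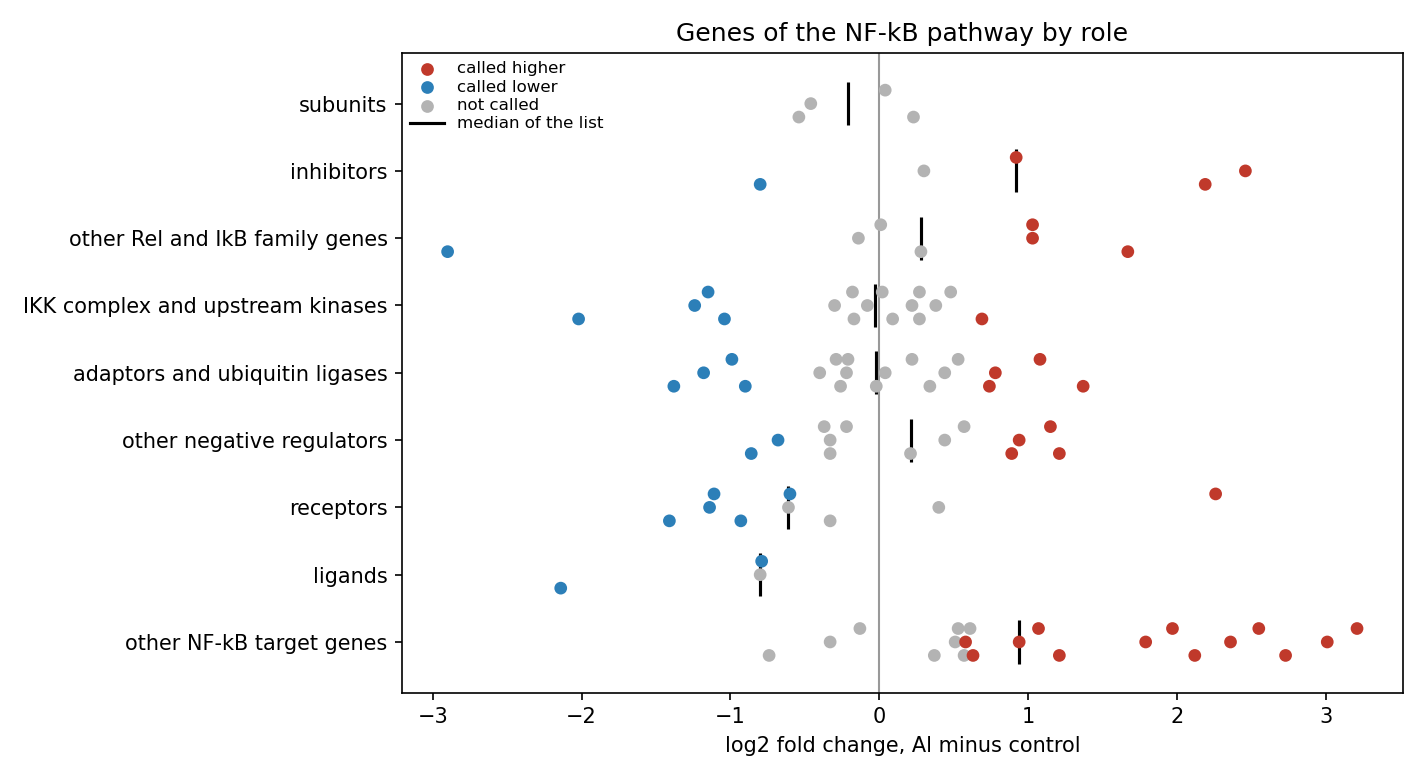
Log2 fold change, Al minus control, of each tested gene by role in the pathway, with called genes in red (higher) or blue (lower), others in grey, and a black line at the median of each list. Of the targets 13 of 21 were called higher, of the inhibitors 3 of 5, and of the receptors 5 of 9 were called lower. Of all tested genes 26.2% were called higher and 24.4% lower.

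The genes most like Nfkbia over the 6 libraries, by Pearson correlation of log2 scaled FPKM among 10348 genes, were Zbtb45 (r = 0.9996), Rrnad1 (0.9994) and Adnp (0.9994). The 6 libraries form 2 groups for Nfkbia, so such values mostly rank genes by how cleanly the groups separate, and 1722 genes had r above 0.95. For Rela, whose groups overlap, the nearest were Atg2b (0.9930), Ik (0.9853) and Clcf1 (0.9812), and 34 genes had r above 0.95. These correlations are a description and share the same libraries, depths and size factors.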

How the data were processed

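The authors trimmed reads with Trimmomatic, removed ribosomal RNA with SortMeRNA, aligned to GRCm38 with HISAT2 and deposited FPKM, 1 value per gene and library. The submitters' processing notes name fastp, HISAT2, HTSeq and GRCm39 instead. The program, annotation and strand setting behind the FPKM are not given in the sources used here. The authors called genes with DESeq2, which needs counts. After a filter on low values (mean FPKM from 0.1 upwards) the test was limma 3.58.1 (lmFit, eBayes with trend; R 4.3.3) on log2(FPKM / size factor + 0.1), so that changes of low genes are understated. Size factors were medians of ratios over genes detected in every library and averaging 1 FPKM or more. A call needed P below 0.05 before adjustment and a log2 fold change beyond 0.58 either way. Adjusted P values are Benjamini-Hochberg over all 12889 tested genes.

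Since FPKM steps are whole reads, read numbers were recovered for 99.99% of the 17688 genes above 0 (ratios whole within a relative 1e-09; the smallest whole numbers, so a lower bound where they share a divisor). They give the depths and a limma voom alternative. PCR reads without molecular identifiers are not independent molecules.

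The 10 members and all lists were chosen with earlier results of these data known. Besides the members, the text names of each list up to 3 called genes with the largest and 3 with the smallest log2 fold change, plus Rel, Ikbkg, Chuk, Cyld, Tnf and Il1b, and the 3 genes most correlated with Nfkbia and with Rela. The other targets, called or not, were named after their values were seen. Coordinates of genes are from GENCODE M21 on GRCm38 and promoters from RefSeq on GRCm38.p6. Alternatives were the scaling (FPKM as deposited, TPM, quantile), pseudocounts, filters, a replicate block, no trend, other thresholds, voom and leaving out each library. The procedure was tested on simulated data. Other steps used pandas 2.3.3 and numpy 2.4.6 in Python 3.11.15.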

Additional observations from a re-analysis of the deposited data

How the results depend on the processing

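Nfkbia and Tnfaip3 were called higher under every alternative tried, with log2 fold changes of 1.41 to 2.24 and 1.69 to 2.61. Nfkbie was the third member called higher except on FPKM as deposited and TPM, which left 2. The members called lower, 1 with the size factors, numbered 4 on FPKM as deposited and 5 on TPM (beside 42.0% and 53.1% of all genes), 4 by adjusted P alone and 0 with a pseudocount of 1, and 1 to 4 with each library left out (2 without control replicate 3, 4 without Al replicate 3). Under quantile normalization it was Nfkb2 (-0.72) in place of Birc3 (-0.50). The sign of Nfkb1 turned on FPKM as deposited (-0.45), TPM (-0.75), quantile normalization (-0.16), without control replicate 3 (-0.03) and without Al replicate 3 (-0.02; -0.03 to 0.11 over the libraries left out), that of Rela under the same 3 scalings (-0.25, -0.55 and -0.10) and that of Nfkbib on FPKM as deposited (-0.18) and TPM (-0.47). The medians over all genes were -0.43, -0.72 and -0.03 under these scalings, beside 0.03. Of the pathway genes, 26 higher and 18 lower became 16 and 35 on FPKM as deposited and 11 and 42 on TPM, and 25 to 29 and 17 to 20 with a library left out. The inhibitor minus subunit difference, 1.19, was 1.42 under quantile normalization and 1.09 to 1.33 with a library left out. The log2 ratio difference of Tnfaip3 to Nfkb1, 2.42, was 2.77 under quantile normalization, 2.0 with a pseudocount of 1 and 2.33 to 2.56 with a library left out, and that of Nfkbia to Rela 1.79 to 2.05. With the replicate block, 3 members were higher and 1 lower, the same genes, and 3352 and 3123 of all genes were called. Deviations of same-numbered libraries correlated at -0.033, -0.026 and -0.073, and those of the other pairs at -0.057 to 0.076. No pairing by number was thus seen, but shared handling of same-numbered libraries was not tested. The depth limits Tnf, Il1b and Il1a, which were seen in 10 or fewer reads in any library.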
